A study of Mus musculus with 20 samples.

Results

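Interferon-stimulated genes were followed in 20 RNA-seq libraries of mouse CD4+ T cells as a list of 47 gene symbols. This list and the other gene lists were chosen by name, with earlier results of these data known. Shares of members are therefore set beside those of all genes as description only. Of the 47 symbols, 46 had a row in the table of 22048 protein-coding genes. All 46 were among the 13072 genes that passed the filter on low counts. Mx2 had no row there, and its values from the table of all genes stand in the closing section. The cells came from spleen and peripheral lymph nodes of mice with 1 of 2 genotypes. KO mice carried a CD4-driven Cre recombinase (CD4Cre+) with DOT1L FL/FL, the loxP-flanked alleles of the gene for the histone H3 lysine 79 methyltransferase DOT1L. WT mice carried the Cre recombinase alone, so all groups share the Cre. This Cre acts in developing thymocytes that express CD4, and therefore also in the precursors of CD8 T cells.

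Each of the 10 groups had 2 libraries. KO Th1, KO Th2 and KO naive cells were each set against WT cells of the same kind, where naive is the labels' word for the CD4+ cells before culture. Th1 and Th2 cells had grown for 4 days on plate-bound antibodies to CD3 and CD28 (1 µg/ml each), then viable CD4+ cells were sorted. Th1 medium held IL-12 and IL-2 (10 ng/ml each) with anti-IL-4 (10 µg/ml). Th2 medium held IL-4 and IL-2 (10 ng/ml each) with an antibody that blocks IFN-γ (10 µg/ml), the cytokine that induces many of the genes described here. WT Th1 and WT Th2 cultures were also grown with 1 µM SGC0946, a DOT1L inhibitor, and set against cultures with 1 µM SGC0649, its control compound. The labels give no age or sex of the mice and do not say whether the 2 libraries of a group came from separate animals, so p-values measure the spread between these libraries only.

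Interferons act through JAK kinases and STAT proteins. Type I interferons (IFN-α, IFN-β) bring a complex that holds STAT2 and IRF9 to interferon-stimulated response elements, while IFN-γ, the product of Th1 cells, acts through gamma-activated sites and induces IRF1. The genes so induced encode sensors of viral RNA, enzymes that block viral replication, and the guanylate-binding proteins (GBP) and immunity-related GTPases (IRG) that attack the vacuoles of intracellular pathogens. Many of them respond to both kinds of interferon.

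RefSeq promoter windows on GRCm38.p6, running from 250 bases before to 50 bases after the start of each gene, were given for 35 of the 47 members. The windows not given were those of Dhx58, Zbp1, Oas2, Mx1, Mx2, Usp18, Parp9, Parp14, Gbp4, Iigp1, Ifi27l2a and Rtp4. The core of the interferon-stimulated response element, searched on both strands as GAAA, then 2 bases of any kind, then GAAA, was present in 20 of 35 members (57.1%), against 3.99% of 27025 genes with a window. The gamma-activated site TTCNNNGAA, also searched on both strands, was present in 14 of 35 members (40%), against 9.55% of all these genes. A match is a string in the window and not a binding measurement. Windows of 6 members from sets of genes that behaved alike in KO cells are printed 5′ to 3′ on the strand of the gene with the matches in capitals. They are examples that hold matches and do not stand for all windows of their sets. Oas1a (chr5:120907476-120907775, minus strand), Eif2ak2 (chr17:78882523-78882822, minus strand) and Bst2 (chr8:71537423-71537722, minus strand) belong to genes that were higher in KO cells in all 3 cell states. Irf1 (chr11:53769764-53770063, plus strand), Irgm2 (chr11:58214727-58215026, plus strand) and Tgtp1 (chr11:48992197-48992496, minus strand) belong to genes that were lower in KO Th1 and higher in KO Th2.
Oas1a: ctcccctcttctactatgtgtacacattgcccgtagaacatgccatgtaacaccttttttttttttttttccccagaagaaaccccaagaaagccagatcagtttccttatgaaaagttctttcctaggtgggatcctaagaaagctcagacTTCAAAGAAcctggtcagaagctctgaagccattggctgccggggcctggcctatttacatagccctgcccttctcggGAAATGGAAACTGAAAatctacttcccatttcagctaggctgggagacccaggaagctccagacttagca
Eif2ak2: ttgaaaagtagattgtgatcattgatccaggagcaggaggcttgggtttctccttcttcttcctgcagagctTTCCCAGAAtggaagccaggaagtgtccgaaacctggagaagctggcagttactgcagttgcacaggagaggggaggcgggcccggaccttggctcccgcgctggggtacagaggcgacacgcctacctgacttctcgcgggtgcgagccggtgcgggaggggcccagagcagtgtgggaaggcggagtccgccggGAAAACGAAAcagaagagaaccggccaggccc
Bst2: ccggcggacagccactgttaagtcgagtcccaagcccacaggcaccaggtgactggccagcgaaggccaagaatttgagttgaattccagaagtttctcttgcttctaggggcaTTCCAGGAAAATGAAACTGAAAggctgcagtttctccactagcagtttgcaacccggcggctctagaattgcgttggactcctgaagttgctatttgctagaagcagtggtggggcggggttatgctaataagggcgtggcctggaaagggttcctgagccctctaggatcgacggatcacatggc
Irf1: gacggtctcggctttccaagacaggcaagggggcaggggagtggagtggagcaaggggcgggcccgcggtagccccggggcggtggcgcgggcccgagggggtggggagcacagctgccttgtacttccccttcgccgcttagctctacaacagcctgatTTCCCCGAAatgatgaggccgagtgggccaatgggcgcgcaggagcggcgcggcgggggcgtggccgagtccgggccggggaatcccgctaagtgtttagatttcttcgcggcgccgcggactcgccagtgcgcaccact
Irgm2: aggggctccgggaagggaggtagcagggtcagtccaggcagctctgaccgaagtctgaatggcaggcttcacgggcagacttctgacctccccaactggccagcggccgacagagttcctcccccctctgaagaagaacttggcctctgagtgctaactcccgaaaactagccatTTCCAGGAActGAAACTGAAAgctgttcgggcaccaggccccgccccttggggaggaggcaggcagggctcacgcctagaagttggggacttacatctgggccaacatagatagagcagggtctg
Tgtp1: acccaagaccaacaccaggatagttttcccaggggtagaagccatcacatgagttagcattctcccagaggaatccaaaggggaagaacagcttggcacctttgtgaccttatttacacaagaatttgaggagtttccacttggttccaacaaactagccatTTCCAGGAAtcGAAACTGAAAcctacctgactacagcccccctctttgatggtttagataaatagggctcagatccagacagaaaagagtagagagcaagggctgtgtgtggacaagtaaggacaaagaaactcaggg
Irgm2 and Tgtp1 hold a gamma-activated site just upstream of the response element in the same spacing, at positions -75 and -64 of Irgm2 and -88 and -77 of Tgtp1 relative to the start. In Bst2 the gamma-activated site and a response element overlap, and in Oas1a 2 response elements overlap each other. Irf1 holds a gamma-activated site at position -90 and no response element core. The response element was present in 4 of 8 windows of genes higher in both KO Th1 and KO Th2, in 4 of 7 of genes lower in Th1 and higher in Th2, and in 2 of 4 of genes lower in both, and the gamma-activated site in 5 of 8, 3 of 7 and 3 of 4. Both motifs stood together in 3 of 8, 2 of 7 and 1 of 4, while every printed window except that of Irf1 holds both. Cmpk2 and Ifi44, also higher in KO cells in all 3 states, hold neither in the windows given. These counts are small and were not tested.

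Counts assigned to protein-coding genes ran from 9704500 to 13025588 per library. All 8 T cell marker genes in the table were present in all 20 libraries, with Cd3e at 164 to 357 CPM (counts scaled to library size by TMM) and Cd4 at 157 to 1100 CPM. Dot1l RNA itself was a weak check of the genotype, since counts cover all exons. Its log2 change in KO over WT was -0.10 in naive cells, which did not pass the test (adjusted p = 0.544), -0.39 in Th1 (adjusted p = 0.00841) and -0.60 in Th2 (adjusted p = 0.000269). Across genes, log2 differences between the libraries of a group had an SD of 0.115 to 0.202 in most groups and more in KO Th2 (0.3004), WT Th2 with SGC0649 (0.325) and WT Th2 with SGC0946 (0.212). Changes are given as log2 fold change ± SE from a fit of all 20 libraries in edgeR, and adjusted p is from its quasi-likelihood F test with Benjamini-Hochberg adjustment over 13072 genes. A gene is called higher or lower, and is said to rise or fall, at an adjusted p under 0.05. In bulk RNA, fewer cells of a type and less RNA per cell cannot be told apart. Multimapping reads went uncounted, and genes with close relatives (Tgtp1 and Tgtp2, Ifit3 and Ifit3b, the Oas1, Gbp and Irgm families, Mx1 and Mx2) are uncertain. Igtp and Irgm2 overlap on the same strand of chromosome 11.

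In WT cells the list followed the culture condition. Of the 46 members, 42 were higher in WT Th1 than in WT Th2 cultures and none was lower, where 26.0% of all genes tested were higher and 27.3% lower. The median log2 difference of the members was 1.66, against 0 for all genes. The members that did not pass were Dhx58, Oasl1, Rsad2 and Bst2. The largest difference was in Iigp1, an IRG protein, with 111 and 111 CPM in WT Th1 against 2.65 and 4.45 CPM in WT Th2 (log2 change 4.98 ± 0.27, adjusted p = 9.18e-10). Next came Ifi44, a cytoplasmic protein of the interferon response (log2 change 3.18 ± 0.44, adjusted p = 1.18e-05), then Gbp7 (log2 change 2.98 ± 0.30, adjusted p = 1.32e-06) and Gbp5 (log2 change 2.70 ± 0.30, adjusted p = 3.85e-06). All 5 GBP and all 5 IRG genes were higher in Th1. Irf1, the transcription factor induced by IFN-γ, had 593 and 520.3 CPM in WT Th1 against 99.92 and 96.6 CPM in WT Th2 (log2 change 2.50 ± 0.17, adjusted p = 1.17e-08), and the groups did not overlap. Isg15, Stat2 and Gbp2 passed by a smaller margin, and each lost its call when 1 library was left out (adjusted p of up to 0.572 for Isg15, 0.108 for Stat2 and 0.0845 for Gbp2).

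Relative to WT naive cells, WT Th1 cultures had 23 members higher and 13 lower (34.3% and 33.0% of all genes), and WT Th2 cultures had 8 higher and 31 lower (36.9% and 35.0%). The median log2 difference of the members was 0.49 for Th1 and -1.12 for Th2. Both comparisons use the same naive libraries. The genes that rose in Th1 were led by Gbp2, with 2515 and 2206 CPM in WT Th1 against 85.6 and 74.6 CPM in WT naive cells (log2 change 4.88 ± 0.80, adjusted p = 0.00021). Gbp5 (log2 change 3.92 ± 0.32, adjusted p = 9.75e-08), Usp18, the protease that removes ISG15 (log2 change 3.20 ± 0.24, adjusted p = 2.56e-08), and Gbp3 (log2 change 2.50 ± 0.36, adjusted p = 2.96e-05) followed. The genes that fell in Th1 were led by Rsad2, the antiviral protein viperin (log2 change -1.92 ± 0.27, adjusted p = 7.64e-06), Oas2, a synthetase that activates RNase L (log2 change -1.35 ± 0.22, adjusted p = 6.58e-05), Rtp4 (log2 change -1.21 ± 0.23, adjusted p = 0.000195) and Cmpk2, a mitochondrial nucleotide kinase (log2 change -1.12 ± 0.15, adjusted p = 4.33e-06). In Th2 the deepest falls were in Cmpk2 (log2 change -3.76 ± 0.20, adjusted p = 4.78e-11), Ifi44 (log2 change -3.66 ± 0.42, adjusted p = 6.69e-07), Ifit2 (log2 change -3.34 ± 0.18, adjusted p = 3.67e-11) and Oas2 (log2 change -3.27 ± 0.27, adjusted p = 1.91e-08). Irf7, the factor that amplifies type I interferon responses, had 57.7 and 58.3 CPM in WT Th1, 14.4 and 16.7 CPM in WT Th2 and 102 and 116 CPM in WT naive cells, so it was highest before culture. Gbp2 (log2 change 2.53 ± 0.73, adjusted p = 0.00877) and Gbp5 (log2 change 1.22 ± 0.31, adjusted p = 0.00299), with Dhx58 (log2 change 1.01 ± 0.12, adjusted p = 9.71e-07) and Usp18 (log2 change 0.88 ± 0.25, adjusted p = 0.00566), were the largest rises in Th2. The Gbp2 call in Th2 was lost without WT Th2 replicate 1 (log2 change 1.34, adjusted p = 0.108) or WT naive replicate 2 (adjusted p = 0.0506). That of Usp18 ended without WT Th2 replicate 1 (0.0668) or WT naive replicate 1 (0.051).

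On a scale corrected for gene length (TPM, within protein-coding genes), the most abundant members in WT naive cells were Ifi27l2a at 1192 ± 83.6 TPM and Irf1 at 434 ± 0.996 TPM (SD, n = 2), and the least abundant was Ifi44 at 2.26 ± 0.0349 TPM. WT Th1 cultures had Gbp2 first at 3157 ± 281 TPM, then Ifi27l2a at 1668 ± 95.1 TPM. In WT Th2 cultures Gbp2 (610.0 ± 474 TPM) and Ifi27l2a (605 ± 45.6 TPM) stood next to each other, with the spread of Gbp2 far above their difference. Ifi44 was the lowest member in all 3 states, at 0.151 ± 0.133 TPM in WT Th2.

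**Figure D1:**
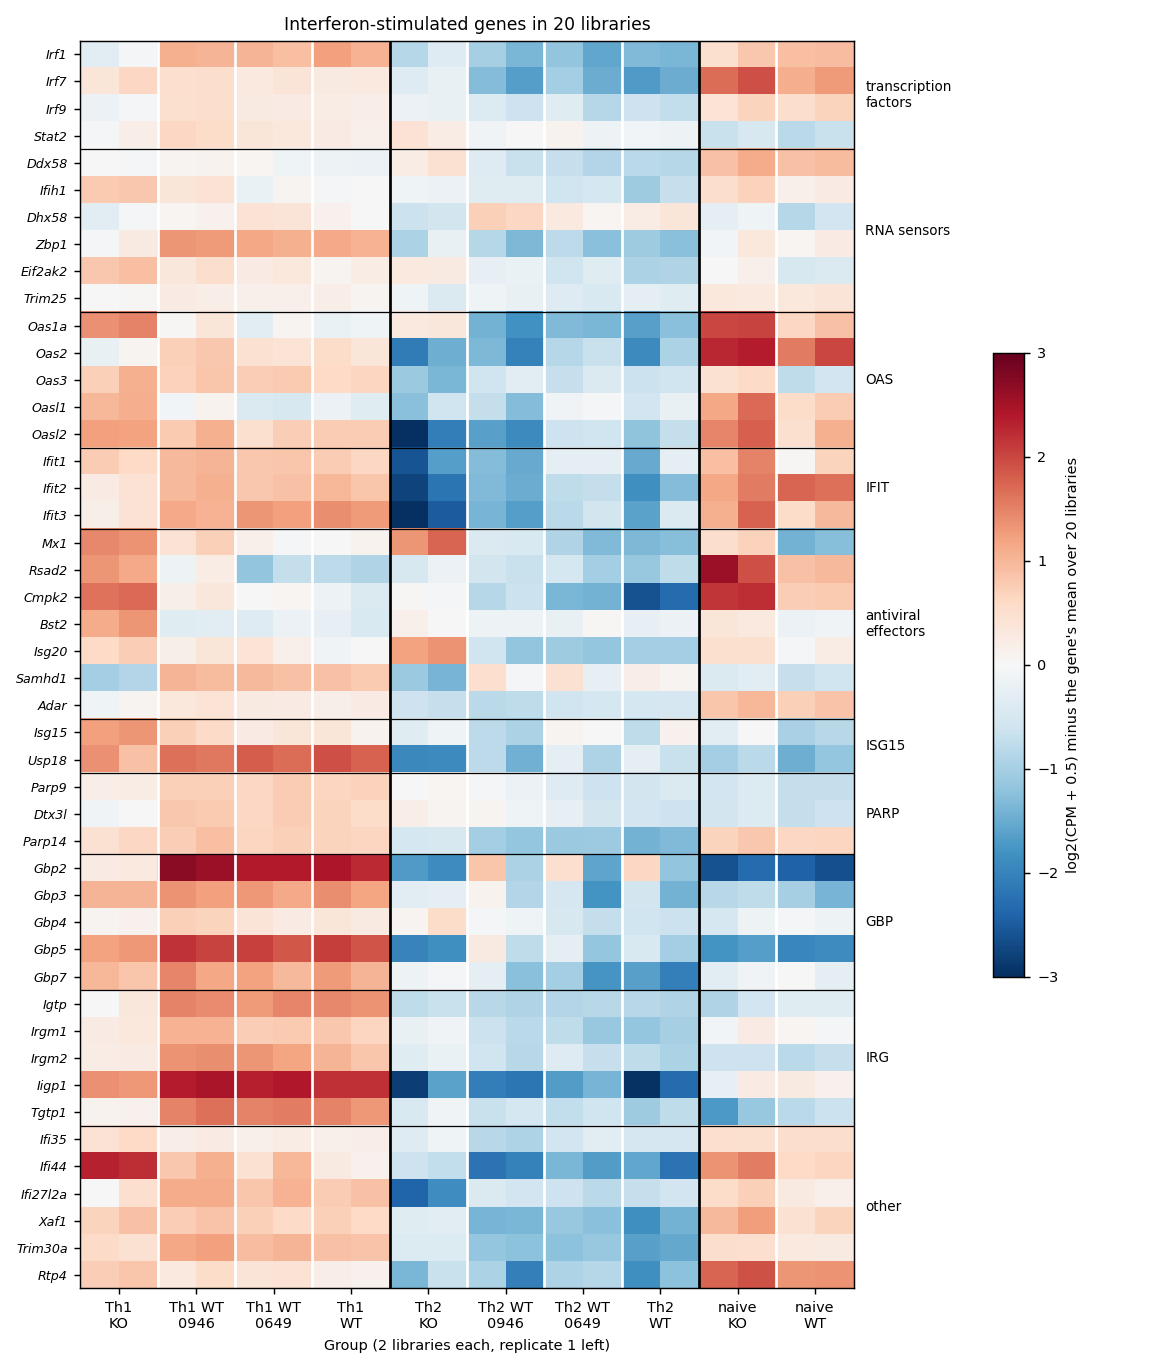
Heat map of the 46 members (rows, by role) in 20 libraries (columns, 2 per group), coloured by log2(CPM + 0.5) minus the gene's mean over all libraries, with colours capped at 3 above and below. KO stands left of WT within each cell state, with SGC0946 and SGC0649 cultures of WT cells between them. The GBP and IRG rows are high in WT Th1 cultures. All 5 IRG genes were called lower in KO Th1, as were Gbp2 and Gbp5, while Gbp3, Gbp4 and Gbp7 did not pass. Mx1, Cmpk2 and Oas1a are higher in KO than in WT libraries in each state.

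In KO cells more members were lower than higher in Th1, and more were higher than lower in Th2 and naive cells. Called in at least 1 of the 3 states were 43 members (93.5%, against 79.3% of all genes). In naive cells 17 members rose and 2 fell in KO, where 16% of all genes rose and 12.4% fell, and the members' median log2 change was 0.33 against 0.01 for all genes. Without WT naive replicate 1 the naive count was 9. In Th1 cultures 13 rose and 19 fell, where 24.8% of all genes rose and 25.8% fell (median -0.22 against 0.01). In Th2 cultures 25 rose and 10 fell, where 26.5% of all genes rose and 26.9% fell (median 0.56 against -0.01). There were 7 members that rose in all 3 states: Mx1, Cmpk2, Oas1a, Ifi44, Ifih1, Eif2ak2 and Bst2 (15.2% of members, against 4.56% of all genes). None fell in all 3, which 3.37% of all genes did. Gbp3, Oas2 and Trim25 passed in no state. Among the 7 that rose in all 3 states, the call of Ifi44 in naive cells was lost without WT replicate 1, WT replicate 2 or KO replicate 2. The calls of Ifih1 in naive cells and of Bst2 in Th2 were also lost with some single libraries left out. These 3 comparisons share no library.

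**Figure D2:**
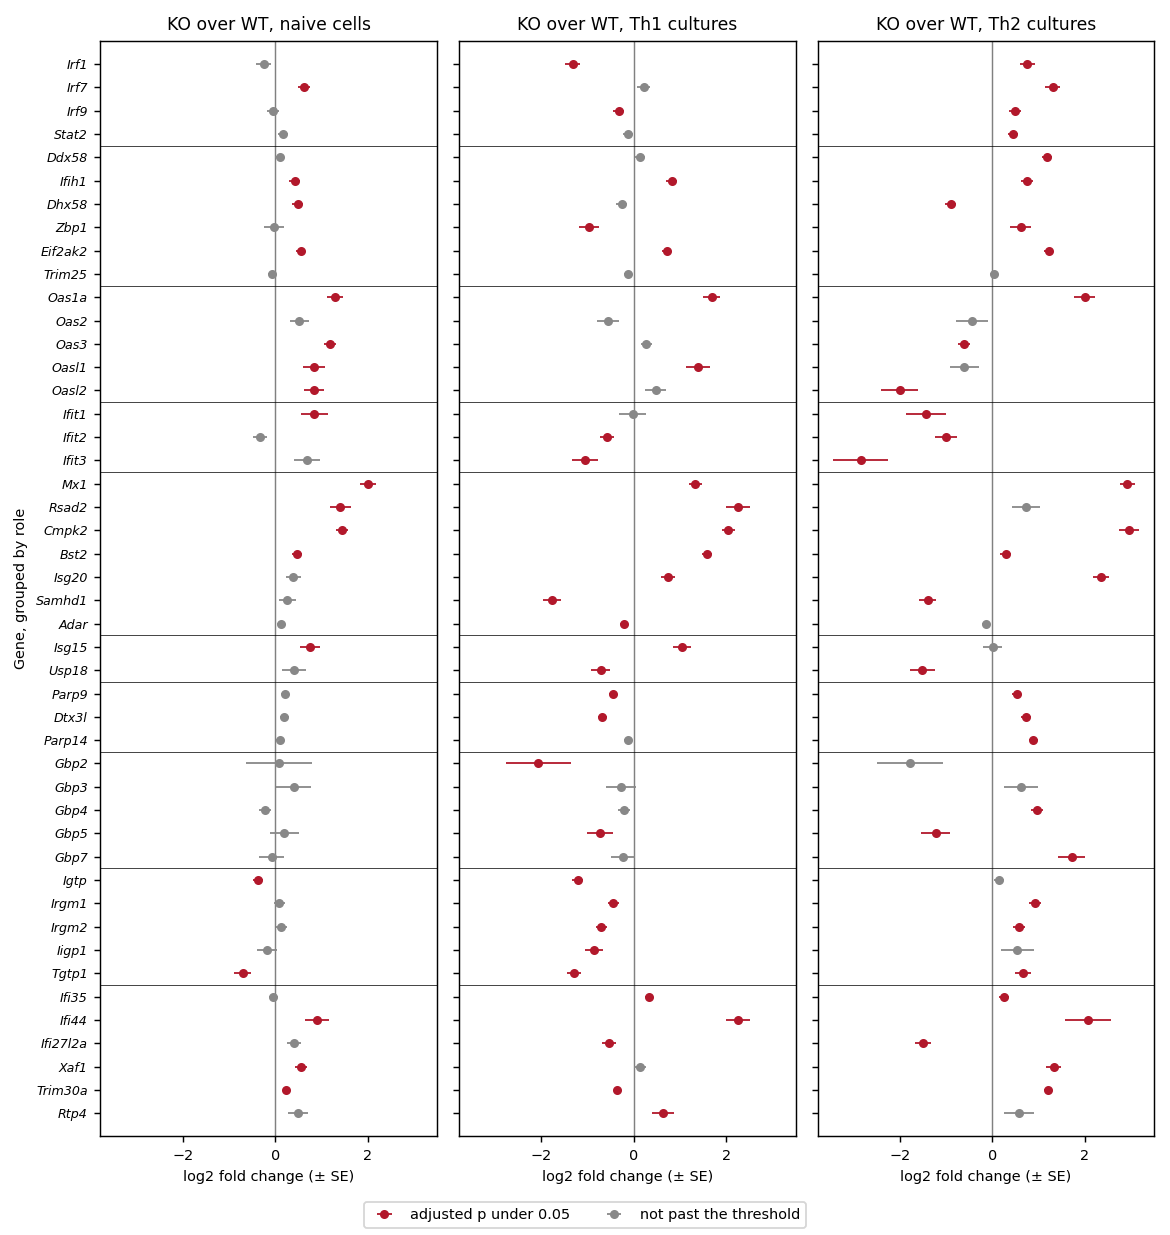
Log2 fold change (± SE) of KO over WT for each of the 46 members, grouped by role, in naive cells, Th1 cultures and Th2 cultures (n = 2 libraries per group). Red points passed an adjusted p of 0.05 and grey points did not. All 5 IRG genes lie left of 0 in Th1 and right of 0 in Th2, where Igtp and Iigp1 did not pass the test, and the 3 Ifit genes lie left of 0 in Th2.

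Mx1, a dynamin-like GTPase that blocks RNA viruses, had 38.2 and 43.0 CPM in KO naive cells against 9.52 and 10.6 CPM in WT (log2 change 2.01 ± 0.16, adjusted p = 7.35e-07). In Th1 it had 72.1 and 67.6 CPM in KO against 26.8 and 28.7 CPM in WT (log2 change 1.33 ± 0.14, adjusted p = 1.4e-06), and in Th2 it had 67.1 and 89.7 CPM in KO against 10.04 and 10.6 CPM in WT (log2 change 2.92 ± 0.16, adjusted p = 3.5e-10). Both KO libraries stood above both WT libraries in each state. Cmpk2 had 35.4 and 37.5 CPM in KO naive cells against 13.1 and 13.6 CPM in WT (log2 change 1.45 ± 0.13, adjusted p = 1.63e-06), 24.8 and 25.8 CPM in KO Th1 against 6.79 and 5.46 CPM in WT Th1 (log2 change 2.04 ± 0.14, adjusted p = 1.05e-08), and 7.79 and 7.44 CPM in KO Th2 against 0.821 and 1.14 CPM in WT Th2 (log2 change 2.96 ± 0.22, adjusted p = 8.37e-09). The KO and WT groups of Cmpk2 did not overlap in any state. Its neighbour on chromosome 12, Rsad2, had 36.5 and 22.9 CPM in KO naive cells against 10.8 and 11.5 CPM in WT (log2 change 1.41 ± 0.22, adjusted p = 0.000239) and 15.02 and 13.04 CPM in KO Th1 against 3.06 and 2.81 CPM in WT (log2 change 2.25 ± 0.26, adjusted p = 2.86e-06). In Th2, Rsad2 did not pass (log2 change 0.72 ± 0.31, adjusted p = 0.0577).

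Other antiviral effectors divided. Isg20, an exonuclease that degrades viral RNA, rose in KO Th2, with 47.8 and 52.4 CPM in KO against 9.76 and 9.82 CPM in WT (log2 change 2.35 ± 0.16, adjusted p = 4.78e-09), and less in KO Th1 (log2 change 0.73 ± 0.15, adjusted p = 0.000769). Bst2, the tetherin that holds budding virions at the cell surface, rose most in KO Th1, with 134 and 153 CPM in KO against 51.7 and 44.1 CPM in WT (log2 change 1.58 ± 0.11, adjusted p = 8.83e-09). Its rise in Th2 (log2 change 0.29 ± 0.11, adjusted p = 0.0379) lost its call without WT Th2 replicate 1 (adjusted p = 0.147), WT Th2 replicate 2 (0.0768) or KO Th2 replicate 1 (0.265), among alternatives that ran from 0.0293 to 0.265. Samhd1, which depletes the nucleotides that retroviruses need, went the other way. It had 491 and 537 CPM in KO Th1 against 1809.8 and 1702 CPM in WT (log2 change -1.77 ± 0.19, adjusted p = 3.05e-06) and 454 and 374 CPM in KO Th2 against 1141 and 1047 CPM in WT (log2 change -1.40 ± 0.19, adjusted p = 1.86e-05). The groups were far apart in both cultures, and in naive cells Samhd1 did not pass (log2 change 0.26 ± 0.19, adjusted p = 0.318). Adar, the RNA editing enzyme, differed little (log2 change -0.22 ± 0.08, adjusted p = 0.0402 in Th1, lost under 7 of 11 alternatives).

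The OAS family includes oligoadenylate synthetases, which sense double-stranded RNA and activate RNase L, though not every member does so. Its genes rose in KO naive cells in 4 of 5 cases, where 16% of all genes rose. Oas1a had 26.1 and 26.5 CPM in KO naive cells against 9.72 and 11.7 CPM in WT (log2 change 1.29 ± 0.17, adjusted p = 5.06e-05), 16.7 and 18.2 CPM in KO Th1 against 5.26 and 5.54 CPM in WT (log2 change 1.69 ± 0.18, adjusted p = 1.47e-06), and 7.70 and 7.87 CPM in KO Th2 against 1.64 and 2.27 CPM in WT (log2 change 1.995 ± 0.24, adjusted p = 2.1e-06). Its relatives did not follow in Th2. Oasl2 had 0.525 and 1.62 CPM in KO Th2 against 3.38 and 4.96 CPM in WT (log2 change -2.01 ± 0.40, adjusted p = 0.00046), although it rose in KO naive cells (log2 change 0.84 ± 0.22, adjusted p = 0.00999). Oas3 rose in KO naive cells (log2 change 1.19 ± 0.13, adjusted p = 7.06e-06) and fell in KO Th2 (log2 change -0.61 ± 0.13, adjusted p = 0.00107). Oasl1 rose in KO naive cells (log2 change 0.84 ± 0.23, adjusted p = 0.0134) and KO Th1 (log2 change 1.39 ± 0.25, adjusted p = 0.00023). The naive calls of Oasl1 and Oasl2 were lost without WT naive replicate 1 or without KO naive replicate 2 (adjusted p of up to 0.138 and 0.127).

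The Ifit genes, whose products bind viral RNA that lacks host caps, lie side by side on chromosome 19 and fell together in KO Th2. Ifit3 had 0.175 and 0.755 CPM in KO Th2 against 1.82 and 4.76 CPM in WT (log2 change -2.85 ± 0.60, adjusted p = 0.000755), a low level at which few reads set the fold. Ifit2 had 2.89 and 4.53 CPM in KO Th2 against 5.93 and 8.79 CPM in WT (log2 change -1.001 ± 0.24, adjusted p = 0.00201), and Ifit1 had 2.01 and 4.31 CPM in KO Th2 against 4.84 and 12.1 CPM in WT (log2 change -1.44 ± 0.43, adjusted p = 0.0107). Both KO libraries were below both WT libraries in each gene. The Ifit1 call was lost without WT Th2 replicate 2 (adjusted p = 0.227) or KO Th2 replicate 1 (adjusted p = 0.121). In KO Th1, Ifit2 (log2 change -0.57 ± 0.15, adjusted p = 0.00484) and Ifit3 (log2 change -1.06 ± 0.29, adjusted p = 0.00644) fell and Ifit1 did not pass (log2 change -0.02 ± 0.29, adjusted p = 0.958). The call of Ifit3 in Th1 was lost without KO Th1 replicate 1 (adjusted p = 0.0561).

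Among the sensors, Ifih1 (MDA5, which binds long double-stranded RNA) and Eif2ak2 (PKR, the kinase that stops translation) rose in all 3 states. Eif2ak2 had 65.3 and 64.1 CPM in KO Th2 against 27.4 and 28.2 CPM in WT (log2 change 1.22 ± 0.10, adjusted p = 3.76e-08), with smaller rises in Th1 (log2 change 0.72 ± 0.09, adjusted p = 1.09e-05) and naive cells (log2 change 0.55 ± 0.10, adjusted p = 0.000671). Ddx58, the RNA helicase RIG-I, rose in KO Th2, with 111 and 130.4 CPM in KO against 54.3 and 52.1 CPM in WT (log2 change 1.18 ± 0.11, adjusted p = 1.69e-07), and passed in neither of the other states. Dhx58, the related helicase LGP2, rose in KO naive cells (log2 change 0.49 ± 0.12, adjusted p = 0.00657) and fell in KO Th2, where it had 33.2 and 35.4 CPM in KO against 60.8 and 67.6 CPM in WT (log2 change -0.91 ± 0.12, adjusted p = 7.16e-06). Zbp1, a sensor of Z-form nucleic acid that triggers cell death, fell in KO Th1 to 121 and 153 CPM, against 277 and 261 CPM in WT (log2 change -0.97 ± 0.22, adjusted p = 0.0022). Its rise in KO Th2 (log2 change 0.61 ± 0.23, adjusted p = 0.0393) was lost under 6 of 11 alternatives, which included leaving out WT Th2 replicate 1 (adjusted p = 0.0563), WT Th2 replicate 2 (0.159) or KO Th2 replicate 2 (0.514, where the log2 change was 0.19). The range over alternatives was 0.00231 to 0.514. Ifih1 also rose in KO naive cells (log2 change 0.42 ± 0.11, adjusted p = 0.0117), but leaving out WT naive replicate 1 gave 0.0823 and leaving out KO naive replicate 2 gave 0.0866 as its adjusted p. Dhx58 in naive cells had an adjusted p of 0.0818 without WT naive replicate 1.

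The transcription factors separated the 2 cultures. Irf1 had 201 and 243 CPM in KO Th1 against 593 and 520.3 CPM in WT (log2 change -1.32 ± 0.16, adjusted p = 9.64e-06), and 139 and 194 CPM in KO Th2 against 99.92 and 96.6 CPM in WT (log2 change 0.76 ± 0.17, adjusted p = 0.0014). The difference of the KO effects between Th1 and Th2 was -2.08 ± 0.24 on the log2 scale (adjusted p = 5.26e-06). In naive cells Irf1 had 352 and 445 CPM in KO against 471 and 476 CPM in WT, which did not pass (log2 change -0.25 ± 0.16, adjusted p = 0.269). Irf7 rose in KO naive cells (log2 change 0.62 ± 0.13, adjusted p = 0.00274), with 152 and 184 CPM in KO against 102 and 116 CPM in WT, and in KO Th2 (log2 change 1.31 ± 0.16, adjusted p = 3.43e-06), with 36.1 and 41.0 CPM in KO against 14.4 and 16.7 CPM in WT. In Th1, Irf7 had 61.8 and 73.0 CPM in KO against 57.7 and 58.3 CPM in WT, short of the threshold (log2 change 0.22 ± 0.14, adjusted p = 0.203). Irf9, the DNA-binding part of the type I complex, rose in KO Th2, with 91.4 and 89.2 CPM in KO against 66.9 and 62.2 CPM in WT (log2 change 0.48 ± 0.13, adjusted p = 0.00463). It fell in KO Th1 (log2 change -0.33 ± 0.12, adjusted p = 0.0386). That call was lost with any 1 of the 4 libraries left out (adjusted p of up to 0.168). Stat2, its partner, rose in KO Th2, with 214 and 182 CPM in KO against 148 and 142 CPM in WT (log2 change 0.45 ± 0.11, adjusted p = 0.00216), and passed neither in Th1 (log2 change -0.13 ± 0.11, adjusted p = 0.345) nor in naive cells (log2 change 0.17 ± 0.11, adjusted p = 0.269).

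The IRG genes, which IFN-γ induces in mice, fell in KO Th1 in 5 of 5 cases. Tgtp1 had 20.1 and 20.6 CPM in KO Th1 against 53.2 and 47.1 CPM in WT (log2 change -1.30 ± 0.15, adjusted p = 2.49e-06), and Igtp had 267 and 339 CPM in KO Th1 against 727 and 680.1 CPM in WT (log2 change -1.22 ± 0.11, adjusted p = 2.18e-07). Iigp1 (log2 change -0.86 ± 0.19, adjusted p = 0.00175), Irgm2 (log2 change -0.70 ± 0.11, adjusted p = 7.43e-05) and Irgm1 (log2 change -0.45 ± 0.12, adjusted p = 0.00492) fell less. In KO Th2, Irgm1 (log2 change 0.93 ± 0.13, adjusted p = 9.81e-06), Tgtp1 (log2 change 0.66 ± 0.18, adjusted p = 0.00469) and Irgm2 (log2 change 0.58 ± 0.12, adjusted p = 0.000733) rose, while Iigp1 (log2 change 0.54 ± 0.36, adjusted p = 0.223) and Igtp (log2 change 0.14 ± 0.11, adjusted p = 0.322) did not pass. The KO Th2 call of Tgtp1 was lost without KO Th2 replicate 2 (adjusted p = 0.0656) or WT Th2 replicate 1 (adjusted p = 0.0559). Tgtp1 and Igtp were also the 2 members that fell in KO naive cells. There Tgtp1 had 5.31 and 8.27 CPM in KO against 10.4 and 11.7 CPM in WT (log2 change -0.70 ± 0.19, adjusted p = 0.011), and Igtp had 143 and 177 CPM in KO against 207 and 206 CPM in WT (log2 change -0.37 ± 0.11, adjusted p = 0.0233). The naive call of Tgtp1 ended without KO naive replicate 1 (adjusted p = 0.191) or WT naive replicate 2 (0.0953). That of Igtp ended without KO naive replicate 1 (0.298), WT naive replicate 1 (0.0844) or WT naive replicate 2 (0.101).

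The GBP genes were less uniform. Gbp2 had 554 and 571 CPM in KO Th1 against 2515 and 2206 CPM in WT (log2 change -2.07 ± 0.70, adjusted p = 0.0288). Leaving out any 1 of the 4 libraries ended that call (adjusted p of 0.0614 to 0.119). Gbp5 fell in KO Th1 (log2 change -0.73 ± 0.27, adjusted p = 0.0399), also lost without any 1 of the 4 libraries (adjusted p of up to 0.16), and in KO Th2, where it had 27.7 and 30.8 CPM in KO against 81.4 and 54.9 CPM in WT (log2 change -1.23 ± 0.31, adjusted p = 0.00454). The Th2 call of Gbp5 was lost without WT Th2 replicate 1 (adjusted p = 0.0563). Gbp7 rose in KO Th2, with 94.9 and 99.99 CPM in KO against 33.9 and 25.0 CPM in WT (log2 change 1.72 ± 0.29, adjusted p = 0.000208), as did Gbp4, with 368 and 506 CPM in KO against 229 and 219.8 CPM in WT (log2 change 0.96 ± 0.13, adjusted p = 1.03e-05). Gbp2 in Th2 had 144 and 125 CPM in KO against 720.4 and 204 CPM in WT, short of the threshold (log2 change -1.78 ± 0.71, adjusted p = 0.0537). No GBP gene passed in naive cells.

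The ISG15 pair parted as well. Isg15, a ubiquitin-like protein attached to other proteins, rose in KO naive cells (log2 change 0.76 ± 0.22, adjusted p = 0.0183) and in KO Th1, with 44.4 and 47.6 CPM in KO against 24.4 and 20.3 CPM in WT (log2 change 1.04 ± 0.19, adjusted p = 0.000309). Usp18, which removes ISG15 and restrains type I interferon receptors, fell in KO Th1 (log2 change -0.72 ± 0.21, adjusted p = 0.0103) and KO Th2, with 10.8 and 10.9 CPM in KO Th2 against 35.0 and 26.7 CPM in WT (log2 change -1.51 ± 0.26, adjusted p = 0.000226). Isg15 in naive cells no longer passed once WT naive replicate 1 (adjusted p = 0.105), WT naive replicate 2 (0.0668) or KO naive replicate 2 (0.115) was left out, nor Usp18 in Th1 without WT Th1 replicate 1 (0.0656) or KO Th1 replicate 2 (0.103). Parp9 and Dtx3l, a pair of divergently transcribed genes whose products work together, fell in KO Th1 (log2 changes -0.46 and -0.68) and rose in KO Th2 (0.52 and 0.73). Parp14 rose in KO Th2 (log2 change 0.89 ± 0.09, adjusted p = 3.5e-07).

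Of the remaining members, Ifi44 had 13.5 and 12.6 CPM in KO Th1 against 2.89 and 2.56 CPM in WT (log2 change 2.25 ± 0.25, adjusted p = 2.16e-06), and 1.31 and 1.19 CPM in KO Th2 against 0.456 and 0.103 CPM in WT (log2 change 2.07 ± 0.51, adjusted p = 0.00243). The Th2 levels of Ifi44 are those of few reads. Ifi27l2a, a mitochondrial protein, had 24.2 and 35.5 CPM in KO Th2 against 80.4 and 87.2 CPM in WT (log2 change -1.50 ± 0.17, adjusted p = 2.48e-06). Trim30a, a TRIM protein that dampens inflammatory signalling, had 109 and 108 CPM in KO Th2 against 46.0 and 49.0 CPM in WT (log2 change 1.19 ± 0.08, adjusted p = 1.95e-09), while it fell in KO Th1 (log2 change -0.35 ± 0.07, adjusted p = 0.000642). Xaf1, a pro-apoptotic protein, rose in KO Th2 (log2 change 1.33 ± 0.16, adjusted p = 3.13e-06).

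**Figure D3:**
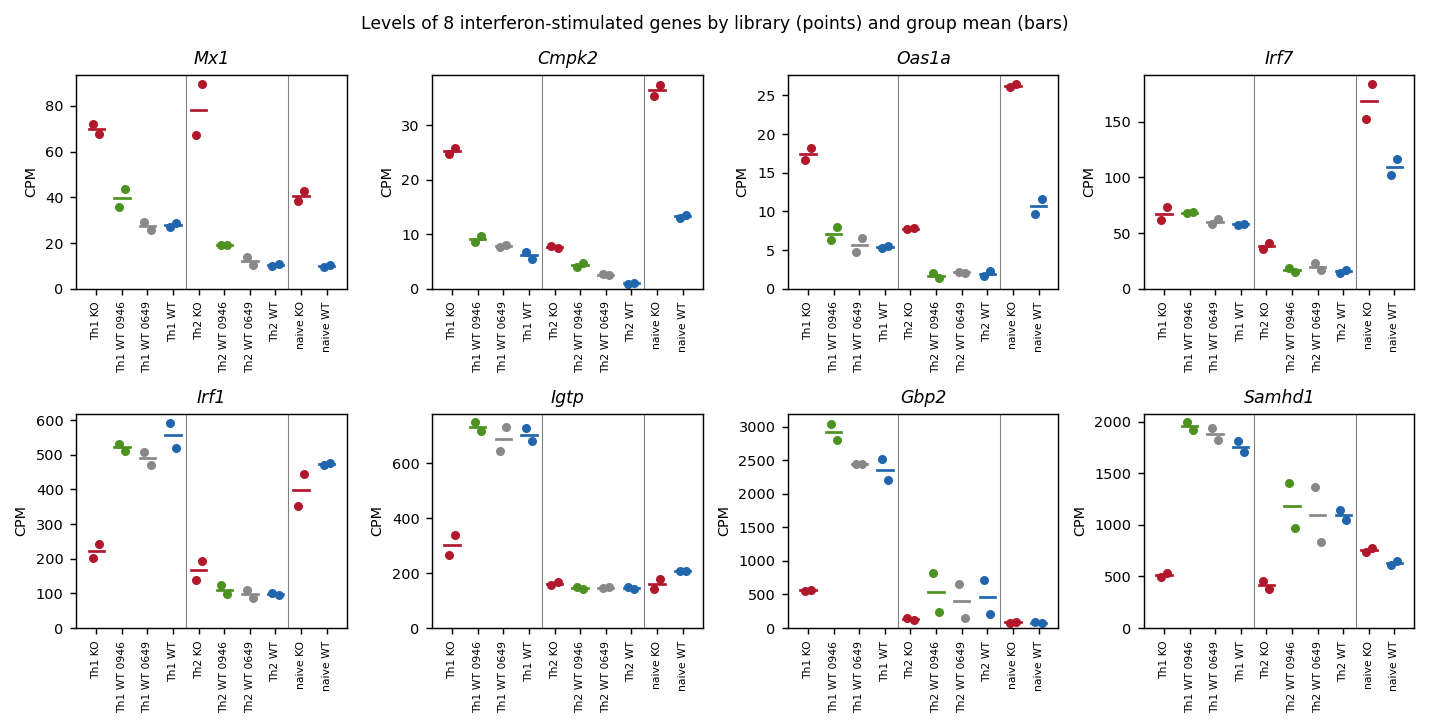
CPM of 8 members in each library (points) with the group mean (bars), KO left of the WT groups within Th1, Th2 and naive cells, and 0946 and 0649 standing for SGC0946 and SGC0649. KO points of Mx1, Cmpk2 and Oas1a lie above WT points in each cell state, those of Irf1 and Igtp lie below WT in Th1, and those of Samhd1 lie below WT in both cultures. WT Th2 libraries of Gbp2 are spread between 154 and 827 CPM, counting those with a compound.

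The difference between the KO effects in the cultures was itself tested. The effect in Th1 was above that in Th2 for 10 members and below it for 22 (22.0% and 24.3% of all genes). The 9 members called lower in KO Th1 and higher in KO Th2 were Irf1, Irf9, Zbp1, Trim30a, Irgm1, Irgm2, Tgtp1, Parp9 and Dtx3l, or 19.6% of members against 5.38% of all genes. None was higher in KO Th1 and lower in KO Th2, as 4.48% of all genes were. Another 9 rose in both cultures (19.6%, against 9.93% of all genes) and 6 fell in both (13%, against 10.2%). These sets include calls that were lost under some alternatives. In the first set they were Irf9 in Th1, and Zbp1 and Tgtp1 in Th2. Among those that rose in both they were Bst2 in Th2 and Ifi35 in both cultures. Among those that fell in both they were Gbp5 in both cultures, and Usp18, Ifi27l2a and Ifit3 in Th1. Compared with the effect in naive cells, the Th1 effect was higher for 3 members and lower for 17 (10.7% and 16.9% of all genes), and the Th2 effect was higher for 17 and lower for 10 (17% and 18.7%). The largest differences are listed with the other results for a closer look.

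**Figure D4:**
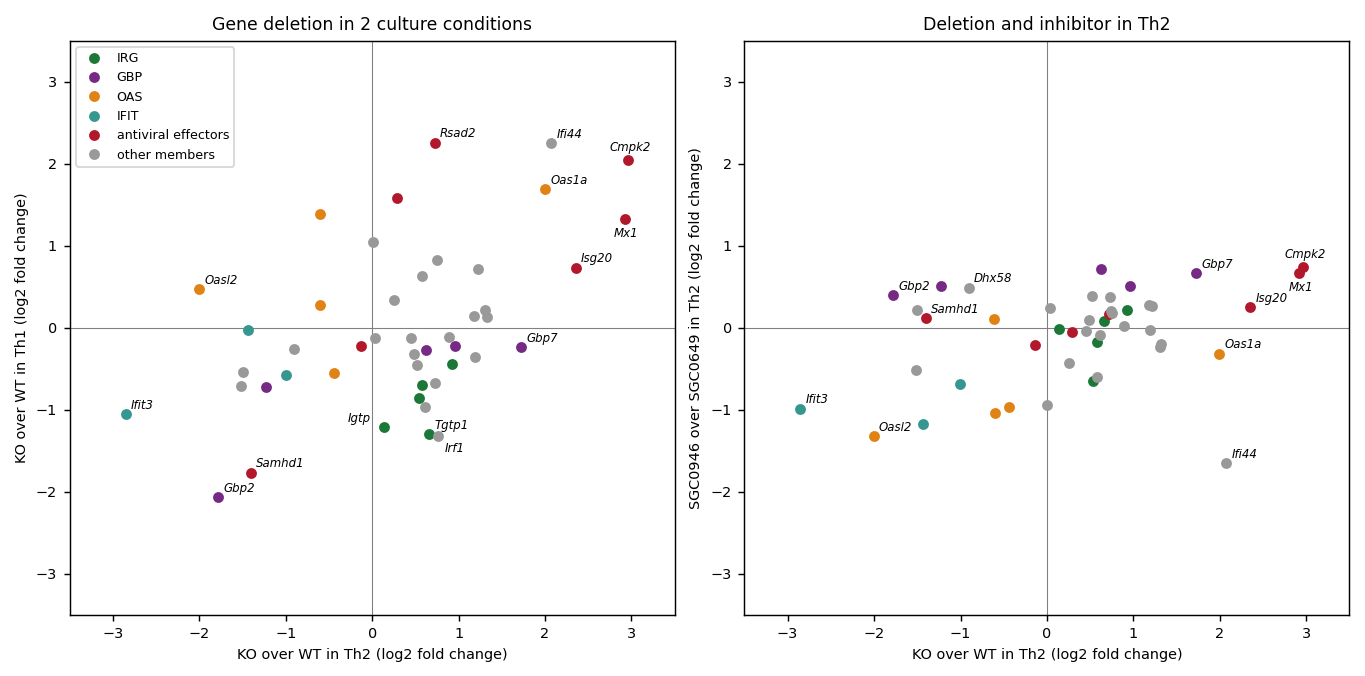
Each point is 1 of 46 members, coloured by role. The left panel sets the log2 change of KO over WT in Th1 cultures against that in Th2 cultures, and the right panel sets that of SGC0946 over SGC0649 in Th2 against that of KO over WT in Th2 (n = 2 libraries per group, no library shared between the axes). Mx1, Cmpk2, Oas1a and Ifi44 lie at the upper right of the left panel, the IRG genes lie below 0 in Th1 and above 0 in Th2, and in the right panel Mx1 and Cmpk2 lie above 0 while Oas1a and Ifi44 lie below it on the SGC0946 axis.

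Genes upstream of the list were read in the same fit. Ifng, the gene for IFN-γ, had 51.9 and 57.4 CPM in KO naive cells against 16.8 and 12.8 CPM in WT (log2 change 1.89 ± 0.30, adjusted p = 0.000561), 2559 and 1658 CPM in KO Th1 against 727 and 700.1 CPM in WT (log2 change 1.56 ± 0.25, adjusted p = 0.000165), and 46.9 and 80.2 CPM in KO Th2 against 20.8 and 26.9 CPM in WT (log2 change 1.41 ± 0.29, adjusted p = 0.000928). Ifng rose in KO Th1, where the 5 IRG genes fell. The 18 type I interferon genes in the table held 0 to 9 counts in all per library, and none of them passed the filter. Of the 21 ligand genes listed, 2 were tested, Ifng and 1 gene outside type I. That second gene was called lower in KO Th2 and passed in neither naive cells nor Th1. Its level was low, since all listed ligand genes, Ifng included, summed to 21.9 and 29.0 CPM in WT Th2. Receptor and kinase genes fell in KO Th1 in 7 of 10 cases and none rose, where 25.8% of all genes fell. Ifngr2, the signalling chain of the IFN-γ receptor, fell in all 3 states, with 4.26 and 4.75 CPM in KO Th1 against 12.7 and 10.8 CPM in WT (log2 change -1.39 ± 0.18, adjusted p = 1.13e-05), and log2 changes of -1.21 in naive cells and -1.23 in Th2. Both chains of the type I receptor, Ifnar1 (log2 change -1.31 ± 0.13, adjusted p = 3.47e-07) and Ifnar2 (log2 change -1.28 ± 0.15, adjusted p = 3.85e-06), fell in KO Th1, as did Jak1 (log2 change -0.85 ± 0.12, adjusted p = 1.59e-05) and Jak2 (log2 change -1.07 ± 0.12, adjusted p = 3.07e-06).

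In KO Th2 the receptor and kinase list had 3 higher and 3 lower of 10, near the 26.5% and 26.9% of all genes. Ifngr1, the ligand-binding chain of the IFN-γ receptor, rose (log2 change 1.69 ± 0.21, adjusted p = 7.44e-06) and Jak2 fell (log2 change -2.28 ± 0.13, adjusted p = 3.97e-10). In KO naive cells, where 16% of all genes were higher and 12.4% lower, it had 2 higher and 1 lower of 10. Genes that sense nucleic acid upstream of interferon had 7 higher and none lower of 15 in KO naive cells, with Irf5 (log2 change 1.19 ± 0.19, adjusted p = 0.000281) and Unc93b1, the chaperone of endosomal Toll-like receptors (log2 change 1.09 ± 0.19, adjusted p = 0.000912), among those that rose. The same genes had 3 higher and 5 lower in KO Th1, where the shares of all genes were 24.8% and 25.8%, and 3 higher and 2 lower in KO Th2. Genes that restrain the pathway had 4 higher and 3 lower of 10 in KO naive cells, 0 higher and 7 lower in KO Th1, and 3 higher and 5 lower in KO Th2. Among them Socs3, a feedback inhibitor, fell in KO Th1 (log2 change -1.50 ± 0.15, adjusted p = 4.8e-07) and rose in KO Th2 (log2 change 1.09 ± 0.14, adjusted p = 7.67e-06).

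A separate list of other interferon-induced genes, of which 43 were tested, was read beside the members. It had 10 higher and 5 lower in KO naive cells (median log2 change 0.01), 9 higher and 18 lower in KO Th1 (median -0.17), and 25 higher and 7 lower in KO Th2 (median 0.48). Of all genes, 16% and 12.4% were higher and lower in naive cells, 24.8% and 25.8% in Th1, and 26.5% and 26.9% in Th2. The Ifitm genes, whose membrane proteins block virus entry, rose in all 3 states. Ifitm3 had 38.6 and 30.0 CPM in KO naive cells against 11.4 and 7.27 CPM in WT, 469.6 and 434 CPM in KO Th1 against 47.5 and 49.8 CPM in WT (log2 change 3.21 ± 0.15, adjusted p = 1.02e-10), and 445 and 401 CPM in KO Th2 against 22.8 and 22.5 CPM in WT (log2 change 4.22 ± 0.16, adjusted p = 4.4e-12). Ifitm1 (log2 change 5.65 ± 0.23, adjusted p = 5.33e-11) and Ifi204, a DNA sensor (log2 change 3.83 ± 0.62, adjusted p = 9.04e-05), likewise rose in KO Th2 and in both other states. Ifi47, another IRG gene, fell in KO Th1 (log2 change -1.05 ± 0.11, adjusted p = 5.77e-07) and rose in KO Th2 (log2 change 0.75 ± 0.11, adjusted p = 1.81e-05), as did Nlrc5, the activator of MHC class I genes (log2 change -0.96 ± 0.12, adjusted p = 5.97e-06 and log2 change 0.43 ± 0.12, adjusted p = 0.00751). Tgtp2, the near copy of Tgtp1, did the same (log2 changes -0.50 in Th1 and 1.82 in Th2).

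Markers of other cells moved with some of these changes. Of all genes, 16% were called higher and 12.4% lower in KO naive cells, 24.8% and 25.8% in KO Th1, and 26.5% and 26.9% in KO Th2. In KO naive libraries the summed CPM of 12 myeloid and dendritic cell markers was 472 to 1016, against 285 to 393 in WT (7 of 12 called higher). That of plasmacytoid dendritic cell markers other than Bst2 was 127 to 177 in KO against 61.3 to 76.8 in WT, and the defining marker Siglech had 6.30 and 2.09 CPM in KO against 1.77 and 1.98 CPM in WT. B cell markers summed to 56.2 to 90.9 CPM in KO naive cells against 21.6 to 27.6 in WT (3 of 10 called higher), erythroid markers to 323 to 1340 CPM in KO against 200.1 to 314 in WT, and genes of handling stress to 6759 to 7129 CPM in KO against 4790.2 to 5739 in WT. NK cell markers summed to 89.3 to 116 CPM in KO naive cells against 52.3 to 71.96 in WT (2 of 6 called higher), and mast cell and basophil markers to 74.7 to 153 CPM against 32.3 to 64.8 (3 of 10 called higher). T cell markers summed to 3484 to 3935 CPM in KO naive cells against 4452 to 4568 in WT (1 called higher and 3 lower of 8), and 4 of 6 mitochondrially encoded genes were called lower. The part of these cells and genes in the 17 rises of KO naive cells was not tested. In the cultures Siglech was at 0 in every library, while the summed level of this list without Bst2 was 193 to 212 CPM in KO Th1 against 157 to 175 in WT (1 of 7 tested called higher, Bst2 included) and 160.2 to 175 CPM in KO Th2 against 89.1 to 95.3 in WT (3 of 7 called higher). Mast cell and basophil markers summed to 996 to 2294 CPM in KO Th1 against 145 to 193 in WT Th1 (10 of 10 called higher), while 6 of 8 T cell markers fell and their sum was 4025 to 4112 CPM in KO Th1 against 5497 to 5630.0 in WT. In KO Th2 the CD8 genes Cd8a and Cd8b1 summed to 129.6 to 267 CPM against 13.05 to 16.2 in WT (2 of 2 called higher). Myeloid markers were below their naive level in both cultures. They summed to 57.7 to 63.0 CPM in KO Th1 against 20.02 to 23.01 in WT (4 of 12 called higher and 0 lower). In Th2 they summed to 84.4 to 138 CPM in KO against 13.03 to 48.5 in WT (3 of 12 called higher and 1 lower). The part of these cells in the changes of KO cultures was not tested.

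With SGC0946 against SGC0649 in WT Th1 cultures, no member was called by edgeR, where 0.405% of all genes were higher and 0.0612% lower. At an unadjusted p under 0.05, 7 members were higher and 1 lower, and 9.89% of all genes passed. DESeq2 and limma voom called 0 and 0, and a fit of these 4 libraries alone called 8. The members' log2 changes ran from -0.31 to 1.09, with 41 of 46 above 0. The 95% intervals of single members reached down to -1.22 and up to 1.74 at the widest. Mx1 had 35.8 and 43.5 CPM with SGC0946 against 29.4 and 25.8 CPM with SGC0649 (log2 change 0.52 ± 0.15, adjusted p = 0.151). Irf1 (log2 change 0.09 ± 0.16, adjusted p = 0.915), Irf7 (log2 change 0.18 ± 0.14, adjusted p = 0.75), Irf9 (log2 change 0.25 ± 0.12, adjusted p = 0.533) and Stat2 (log2 change 0.24 ± 0.11, adjusted p = 0.466) did not pass.

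In WT Th2 cultures 6 members rose and 5 fell with SGC0946 relative to SGC0649, where 5.45% of all genes rose and 2.51% fell (median of the members 0.05 against 0.01). Cmpk2 had 4.01 and 4.67 CPM with SGC0946 against 2.66 and 2.55 CPM with SGC0649 (log2 change 0.74 ± 0.20, adjusted p = 0.0364), and Mx1 had 19.4 and 19.1 CPM with SGC0946 against 13.99 and 10.3 CPM with SGC0649 (log2 change 0.66 ± 0.17, adjusted p = 0.0236). Gbp4 (log2 change 0.50 ± 0.13, adjusted p = 0.0247) and Dhx58 (log2 change 0.49 ± 0.11, adjusted p = 0.0146) were the next largest rises, then Parp9 and Dtx3l. The falls were Oasl2 (log2 change -1.32 ± 0.33, adjusted p = 0.022), Oasl1 (log2 change -1.04 ± 0.30, adjusted p = 0.0421), Isg15 (log2 change -0.94 ± 0.22, adjusted p = 0.0152), Ifit2 (log2 change -0.69 ± 0.19, adjusted p = 0.0363) and Ifi35. All 11 calls were lost without SGC0649 replicate 2, and all 11 without SGC0946 replicate 1, where 1 other member was called. Without SGC0946 replicate 2, 8 of the 11 were lost. Irf1 (log2 change 0.18 ± 0.17, adjusted p = 0.597), Irf7 (log2 change -0.24 ± 0.17, adjusted p = 0.435), Irf9 (log2 change 0.09 ± 0.13, adjusted p = 0.733) and Stat2 (log2 change -0.04 ± 0.11, adjusted p = 0.877) did not pass. Outside the list, Ifitm3 rose with SGC0946 in Th1 (log2 change 0.92 ± 0.14, adjusted p = 0.00933) and Th2 (log2 change 1.24 ± 0.15, adjusted p = 0.000156).

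The control compound against no compound gave no call among the members in Th1 by edgeR, where 0.0153% of all genes were higher and 0% lower. At an unadjusted p under 0.05, 5 members were higher and 0 lower, where 4.71% of all genes passed in either direction. DESeq2 and limma voom called 0 and 0. In Th2 the control compound gave 2 rises and no fall, where 0.245% of all genes were higher and 0.428% lower. Cmpk2 had 2.66 and 2.55 CPM with SGC0649 against 0.821 and 1.14 CPM without compound (log2 change 1.41 ± 0.26, adjusted p = 0.0312), and Trim30a had 61.5 and 65.5 CPM with SGC0649 against 46.0 and 49.0 CPM without (log2 change 0.42 ± 0.08, adjusted p = 0.0312). Without WT Th2 replicate 1 neither passed, and leaving out 1 library ended these calls more often than it kept them. The libraries of the comparison alone kept 0 of the 2 calls, and limma voom kept 1. The Cmpk2 change rests on few reads, with 9 and 11 in WT Th2 without compound and 27 and 27 with SGC0649. This comparison shares the SGC0649 libraries with that of the inhibitor and the WT libraries with that of the KO. Of all groups, Cmpk2 was lowest in WT Th2 without compound, and KO Th2 had 7.79 and 7.44 CPM.

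Gene deletion and inhibitor were set against each other by the difference of their effects. In Th1 the KO effect was above the SGC0946 effect for 8 members and below it for 15 (12.8% and 17.9% of all genes), and in Th2 it was above for 17 and below for 6 (15% and 17%). Among called members, the difference in Th1 was largest for Ifi44 (log2 change 2.04 ± 0.37, adjusted p = 0.000634) and Samhd1 (log2 change -1.83 ± 0.27, adjusted p = 0.000162). In Th2 it was largest for Ifi44 (log2 change 3.73 ± 0.87, adjusted p = 0.00368), Oas1a (log2 change 2.32 ± 0.38, adjusted p = 0.000195) and Mx1 (log2 change 2.26 ± 0.24, adjusted p = 2.49e-06) upward and for Gbp5 (log2 change -1.74 ± 0.43, adjusted p = 0.00699) and Ifi27l2a (log2 change -1.71 ± 0.24, adjusted p = 5.63e-05) downward. The Ifi44 difference in Th2 rests on few reads. There were 15 and 11 in KO Th2, 5 and 1 in WT Th2, 6 and 4 with SGC0649 and 1 and 2 with SGC0946. The KO cells lost the gene in the mouse, while the inhibitor acted in WT cells during culture. The 2 exposures therefore differ in length and in the cells exposed. Among the 11 members called with the inhibitor in Th2, Mx1, Cmpk2, Gbp4, Parp9 and Dtx3l also rose in KO Th2. Oasl2 and Ifit2 also fell, while Dhx58, higher with the inhibitor, fell in KO Th2. Of all members, 76.1% were called in KO Th2, where 26.5% of all genes were higher and 26.9% lower. The libraries of the inhibitor comparison alone kept 0 of the 11 calls. Cmpk2 also rose in Th2 with SGC0649 over no compound (log2 change 1.41 ± 0.26). Ifi35 was called higher in KO Th2 (log2 change 0.25 ± 0.10, adjusted p = 0.0479), a call lost under 7 of 11 alternatives (adjusted p of up to 0.414 without KO Th2 replicate 2, where its log2 change was 0.12). Oasl1 (log2 change -0.61 ± 0.31, adjusted p = 0.11) and Isg15 (log2 change 0.00 ± 0.22, adjusted p = 1) did not pass in KO Th2.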

How the data were processed

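The authors deposited counts of reads per gene for 20 libraries. Per the file headers, reads were counted with featureCounts 1.5.3 on Ensembl release 84 (GRCm38) with strand setting 2, and gene length is given beside the counts. The aligner is not given in the sources used here. Multimapping reads were not assigned (27.4 to 34.9% of reads), and 49.5 to 56.3% were assigned. Protein-coding counts ran from 9704500 to 13025588 per library, so counting error is small except for genes of few reads.

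Counts were filtered (edgeR filterByExpr, minimum count 10, minimum total 15), scaled by TMM and fitted over all 10 groups with the quasi-likelihood test of edgeR 4.0.16 in R 4.3.3, with 10 residual degrees of freedom and Benjamini-Hochberg adjustment over 13072 genes. The script was tested on simulated data. Alternatives were DESeq2 1.42.0, limma 3.58.1 (voom), RLE scaling, no filter, the table of all genes, the libraries of a comparison alone, a replicate block and leaving out each library. The block was used in no main test. Table columns name both SGC0946 libraries of a condition W1, while titles number them 1 and 2. The members and lists were chosen with earlier results of these data known. Full values are given for Irf1, Irf7, Irf9 and Stat2, and in each comparison for the 4 largest rises and falls among called members whose groups do not overlap. A gene of the pathway is not reported here.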

Additional observations from a re-analysis of the deposited data

Results flagged for a closer look

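The KO effect differed between cell states, or from the inhibitor effect, for many members. The test was that of the difference itself (edgeR, adjusted p under 0.05), on the log2 scale. Such differences were common among all genes as well. The effect in Th1 was above that in Th2 for 22.0% of all genes and below it for 24.3%. Compared with naive cells, the shares were 10.7% and 16.9% for the Th1 effect, and 17% and 18.7% for the Th2 effect. Th1 and Th2 differed for 32 members, led by Oasl2 (2.48), Oasl1 (1.997), Ifit3 (1.80) and Rsad2 (1.53) upward, and Irf1 (-2.08), Gbp7 (-1.96), Tgtp1 (-1.95) and Isg20 (-1.62) downward. The Ifit3 difference has an adjusted p of 0.0443 and was lost under 9 alternatives, with an adjusted p of up to 0.305 without KO Th2 replicate 1. Th1 and naive cells differed for 20 members, with Ifi44 (1.34), Bst2 (1.10) and Cmpk2 (0.59) upward, and Samhd1 (-2.04), Ifit3 (-1.75), Usp18 (-1.12) and Oas2 (-1.08) downward. Of these, the call of Cmpk2 was lost under 9 alternatives (adjusted p of up to 0.183), that of Usp18 under 4 (up to 0.0814), that of Oas2 under 3 (up to 0.0818) and that of Ifi44 under 1 (0.0516). Th2 and naive cells differed for 27 members, led by Isg20 (1.96), Gbp7 (1.79), Cmpk2 (1.51) and Tgtp1 (1.36) upward, and Ifit3 (-3.55), Oasl2 (-2.85), Ifit1 (-2.29) and Usp18 (-1.92) downward. Ifit1 did not pass with the libraries of the comparison alone (adjusted p = 0.0591). KO Th2 libraries held few reads of Ifit3 (2 and 7) and of Oasl2 (6 and 15).

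The KO effect differed from the SGC0946 effect in Th1 for 23 members, led by Ifi44 (2.04), Cmpk2 (1.81), Bst2 (1.66) and Oas1a (1.36) upward, and Samhd1 (-1.83), Irf1 (-1.41), Tgtp1 (-1.35) and Igtp (-1.31) downward. In Th2 it differed for 23 members, led by Ifi44 (3.73), Oas1a (2.32), Mx1 (2.26) and Cmpk2 (2.22) upward, and Gbp5 (-1.74), Ifi27l2a (-1.71), Samhd1 (-1.51) and Dhx58 (-1.39) downward. Among all genes in Th1, the KO effect was above the SGC0946 effect for 12.8% and below it for 17.9%. In Th2 these shares were 15% and 17%. Ifi44 reads in Th2 were few, with 15 and 11 in KO and 5 and 1 in WT.

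Mx2, the relative of Mx1 outside the protein-coding table, was read from the table of all genes, where 15938 genes were tested. It had 10.8 and 14.8 CPM in KO naive cells against 6.56 and 8.43 CPM in WT (log2 change 0.77, adjusted p = 0.0349) and 10.4 and 11.6 CPM in KO Th1 against 8.23 and 5.41 CPM in WT (log2 change 0.69, adjusted p = 0.0355). In Th2, Mx2 had 0.679 and 1.36 CPM in KO against 1.30 and 2.56 CPM in WT, short of the threshold (log2 change -0.93, adjusted p = 0.0828).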

How the results depend on the processing

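No called member changed sign under any alternative run. Of 341 calls, the replicate block kept 341, RLE scaling 337, the table of all genes 335, DESeq2 332, limma voom 329, no filter 327 and the libraries of the comparison alone 308. Leaving out 1 library at a time kept 1628 of 1864. The number of members called ranged, with 1 library left out, from 9 to 17 for KO over WT in naive cells (9 without WT naive replicate 1), 25 to 27 in Th1, 32 to 35 in Th2, 14 to 23 for the KO effect in Th1 minus naive, 0 to 12 for SGC0946 over SGC0649 in Th2 and 0 to 6 for SGC0649 over none in Th2. For SGC0946 over SGC0649 in Th1, the replicate block called 1 and the 4 libraries alone 8. In Th2, limma voom called 6 and the libraries alone 0. For SGC0649 over none, the libraries alone called 2 in Th1 and 0 in Th2, where DESeq2 and the replicate block called 5 each, the table of all genes and no filter 4 each, and limma voom 1. For the KO minus SGC0946 effect in Th1 the libraries alone called 36. Differences between replicates 1 and 2 correlated at 0.212 to 0.734 over all 15 pairs of WT culture groups. Between KO and WT of one condition they correlated at 0.1198 to 0.318. Other pairs of groups ran down to -0.174 (WT naive with WT Th1 with SGC0649), a pair of uncultured and cultured cells. The WT cultures thus shared a replicate difference that the main tests did not model, because the labels do not say what the number marks. The replicate block fits 1 replicate shift common to all 20 libraries, KO and naive included, and kept 341 of 341 calls. It does not model a shift confined to the WT cultures. The cause of these shifts was not tested. Depth limits genes of few reads, such as Ifi44 and Ifit3 in Th2.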

Other observations

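Gbp2 separated the 2 replicates of WT Th2 cultures. KO Th2 had 144 and 125 CPM of Gbp2 in replicates 1 and 2, against 827 and 241 CPM in WT Th2 with SGC0946, 657 and 154 CPM with SGC0649, and 720.4 and 204 CPM without compound. Replicate 1 was the higher one in each of these WT groups.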
